A study of Rattus norvegicus with 35 samples.

Results

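The muscle microRNAs miR-1, miR-133a, miR-133b and miR-206 were read in rat spinal cord after contusion. A probe was taken where its name, split at the slashes that join species, held a human, mouse or rat form of one of these microRNAs, and star strands were left out. This gave 6 of the 1766 probe names on the array. They were hsa-miR-1/mmu-miR-1, called the miR-1 probe here, rno-miR-1, called the rat miR-1 probe, and hsa-miR-133a/mmu-miR-133a/rno-miR-133a, called the miR-133a probe. The others were hsa-miR-133b, the human miR-133b probe, mmu-miR-133b/rno-miR-133b, the rodent miR-133b probe, and hsa-miR-206/mmu-miR-206/rno-miR-206, the miR-206 probe. Of these 6 names, 5 passed the detection filter and were tested. The rat miR-1 probe, the one named for rat, did not pass. Results given for miR-1 therefore rest on the probe named for human and mouse.

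The animals were adult female Wistar rats in 7 groups of 5. Lesioned rats (LS1, LS3 and LS7) had a laminectomy and a 200 kdyne contusion at the vertebra T8, and were sampled 1, 3 or 7 days later. Sham rats (SH1, SH3 and SH7) had the laminectomy alone and were sampled on the same days, and control rats (CT) had no operation. Each array held the RNA of a 1 cm piece of cord around T8 from 1 animal, with all its cell types together, so fewer cells of a type and less RNA per cell cannot be told apart. A microRNA was called changed at an adjusted p (limma, Benjamini-Hochberg) under 0.05 over the 719 names tested.

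These microRNAs are often grouped as myomiRs, because skeletal or cardiac muscle is where they are most abundant. In mammals miR-1 is made from the same transcripts as miR-133a, and miR-206 lies beside miR-133b. In muscle precursors miR-1 and miR-206 favour differentiation and miR-133 favours proliferation, while mouse miR-206 in muscle promotes the regrowth of motor nerve endings. Outside muscle, miR-133b has been studied in midbrain dopamine neurons, and in zebrafish in regrowth of the injured spinal cord.

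The 4 mature rat sequences are shown because they fall into 2 seed families, and because the miR-133a and miR-133b probes have almost the same target. Letters in capitals are the seed, bases 2 to 8 from the 5′ end, the stretch that pairs with target messenger RNAs. All are RefSeq entries placed on the rat assembly GRCr8, at chr18:2160339-2160360 on the minus strand for miR-1, chr9:30590747-30590768 on the plus strand for miR-206, chr18:2157886-2157907 on the minus strand for miR-133a and chr9:30594629-30594650 on the plus strand for miR-133b.
rno-miR-1-3p: uGGAAUGUaaagaaguguguau
rno-miR-206-3p: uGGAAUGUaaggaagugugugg
rno-miR-133a-3p: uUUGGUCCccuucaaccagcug
rno-miR-133b-3p: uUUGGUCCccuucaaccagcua
The first pair shared 19 of 22 bases and differed by A11G, A21G and U22G, with the miR-1 base first and positions counted from the 5′ end. The second pair shared 21 of 22 bases and differed only by G22A, the miR-133a base first. The miR-1 sequence shown is the rat one, while the miR-1 probe tested here is named for human and mouse. Among 724 mature rat microRNAs in the table, the seed of miR-1 was held by 3, the third being rno-miR-1b, and that of miR-133 by 2. The hairpins of Mir1 and Mir133a1 lay 2368 bases apart on chromosome 18, inside the protein-coding gene Mib1. Those of Mir206 and Mir133b lay 3801 bases apart on chromosome 9, inside the long non-coding RNA gene LOC120094648. The sequences of the probes themselves were not used here, and with 1 base between the targets, signal from miR-133a and miR-133b may not be separable on the array.

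Signal strength differed between arrays. The detection limit, the mean plus 2 SD of 28 negative-control spots, lay between 24.3 and 325 units of background-subtracted green intensity over the 35 arrays. Between 270 and 1142 names were above it on an array. Divided by the SD of its array's negative controls, the median signal averaged 9.28 ± 2.66 over the LS7 arrays and 16.6 ± 2.27 over those of SH7 (SD, n = 5 each, two-sided exact permutation p = 0.0079, the smallest that 5 against 5 can give, adjusted p = 0.11 over 20 such tests). The part of this difference in the day 7 results was not tested. For LS7 replicate 4 and SH7 replicate 1, the deposited normalised values followed the scanner values less closely (Spearman 0.912 and 0.938) than on the other arrays (1.0), and day 7 results are also given without these 2 arrays. The tissue label was borne out by microRNAs of neurons, such as miR-124, and of oligodendrocytes, such as miR-219, whose listed probes were detected on 33 to 35 arrays.

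Detection came first, since several values lay at the background. The miR-1, miR-133a and human miR-133b probes were each above the limit on 32 of 35 arrays, and the 3 others were all in LS7. A probe counted as above the limit only where more than 0.5 of its 4 spots were. On the 3 LS7 arrays that did not count, a normalised value still exists, but it is not taken as a measured level. On LS7 replicate 2 the median signal was 1.10 times the limit for miR-133a and 1.003 times for human miR-133b, but too few spots passed. The miR-206 probe was above the limit on 31 arrays, on 2 of 5 in LS7 and 4 of 5 in CT. The rodent miR-133b probe was above it on 27 arrays, including 1 of 5 in LS7, 2 of 5 in LS3 and 4 of 5 in CT. With the limit at 3 SD these 2 probes were above it on 26 and 21 arrays. The rat miR-1 probe was above the limit on 7 of 35 arrays, on 2 of 5 in LS1, 2 of 5 in SH1, 1 of 5 in SH7, 2 of 5 in CT and on none in LS3, SH3 and LS7.

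**Figure D1:**
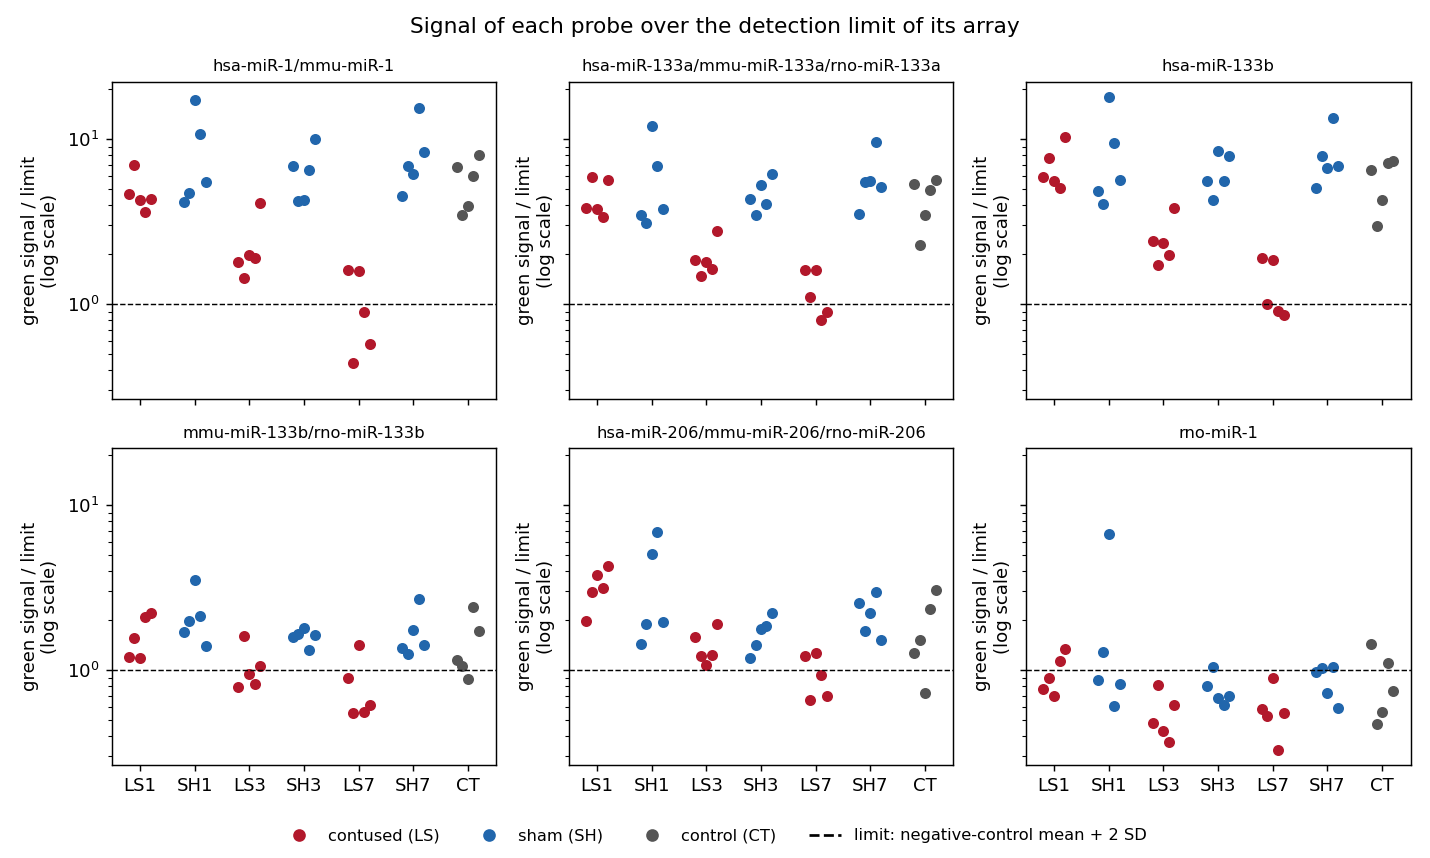
Green signal of each probe divided by the detection limit of its own array (log axis, dashed line at the limit), 1 point per animal in 7 groups. Points at or under the line are all LS7 for the first 3 probes, while the rat miR-1 probe lay near or under the line in every group except for SH1 replicate 3 at 6.67 times the limit.

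At day 7 after contusion the miR-1 probe was far lower than in sham cord. Its normalised values (log2 scale) were 6.72, 4.38, 6.12, 5.75 and 4.31 in LS7, against 7.89, 8.60, 8.47, 8.97 and 8.95 in SH7. The groups did not overlap, and LS7 replicates 2, 4 and 5, among them the lowest 2, were not above the detection limit. The mean was 5.46 ± 1.07 in LS7 and 8.57 ± 0.44 in SH7 (SD, n = 5 each), a log2 change of -3.12 (95% interval -4.06 to -2.17, 8.68-fold lower, adjusted p = 0.00019). This change ranked 7 of 719 from the lowest. The fold, interval and rank take in LS7 replicates 2, 4 and 5, so they rest in part on background values. Against the negative controls of each array, the LS7 signals stood at 4.79, -0.31, 4.79, 1.5 and -0.059 SDs above their mean, while those of SH7 stood between 16.1 and 69.2 SDs. With only the 2 LS7 arrays above the limit, the difference from SH7 was -2.15, with no test. Under 1 of 7 scalings of the arrays, the percentile over names detected everywhere, the change was -0.49 and not called (adjusted p = 0.28).

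The miR-133 probes moved the same way at day 7. The miR-133a probe read 6.71, 6.63, 6.14, 5.49 and 6.0 in LS7, against 7.5, 8.27, 8.31, 8.26 and 8.21 in SH7, with a log2 change of -1.92 (-2.62 to -1.22, 3.78-fold lower, adjusted p = 0.00039). The human miR-133b probe read 7.03, 6.47, 6.44, 5.81 and 5.83 in LS7, against 8.06, 8.81, 8.59, 8.77 and 8.64 in SH7, with a log2 change of -2.26 (-2.95 to -1.56, 4.78-fold lower, adjusted p = 0.00019). Both pairs of groups were fully apart, SH7 replicate 1 was the lowest sham for each, and LS7 replicates 2, 4 and 5 were not above the limit. Over the 2 LS7 arrays above it, the differences were -1.69 and -1.84. Both calls were lost under that percentile scaling, at 0.31 and -0.03 (adjusted p = 0.50 and 0.95), and after negative-control subtraction, at -0.55 and -0.87 (adjusted p = 0.36 and 0.083).

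The miR-206 and rodent miR-133b probes were also called lower, with values near the limit. They were above it on 2 LS7 arrays and 1 LS7 array, so their changes end at the background. The miR-206 probe read 6.20, 5.55, 5.59, 5.85 and 5.28 in LS7, against 6.97, 6.37, 6.81, 6.46 and 6.27 in SH7, a log2 change of -0.88 (-1.54 to -0.23, adjusted p = 0.020). The rodent miR-133b probe read 5.55, 5.04, 5.85, 4.41 and 4.79 in LS7, against 5.89, 5.77, 6.39, 6.32 and 6.14 in SH7, a log2 change of -0.98 (-1.69 to -0.27, adjusted p = 0.019). The miR-206 groups were just apart, and the rodent miR-133b groups overlapped through LS7 replicate 3, its only LS7 array above the limit. Both calls were lost without the 2 arrays named above (adjusted p = 0.078 each), when the other 3 calls held with log2 changes of -3.36, -1.89 and -2.26. The miR-206 call was also lost without SH7 replicate 1 alone (adjusted p = 0.054) and that of the rodent miR-133b probe without LS7 replicate 4 alone (adjusted p = 0.063). With percentile scaling over names detected everywhere both were called higher, by 1.38 and 1.48 (adjusted p = 0.0066 and 0.0049).

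All 5 tested probes were therefore called lower at day 7, in a comparison where 58.4% of the 719 names were called lower and the median change was -1.11. The count of 5 is to be read against that share. The miR-206 and rodent miR-133b changes, ranked 415 and 402 from the lowest, lay nearer zero than the median name, while miR-133a ranked 127 and human miR-133b 67. Arrays of the groups were fully apart for 4 of the 5, against 36.6% of names in this direction. LS7 and SH7 shared 1 scan day, with 1 array each, and the lesioned one was LS7 replicate 5, where none of the 5 probes was above the limit. The miR-1 difference within that day, -4.16, is therefore taken against background. With scan day as a fixed block, the miR-206 change was -0.56 and no longer called (adjusted p = 0.24).

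**Figure D2:**
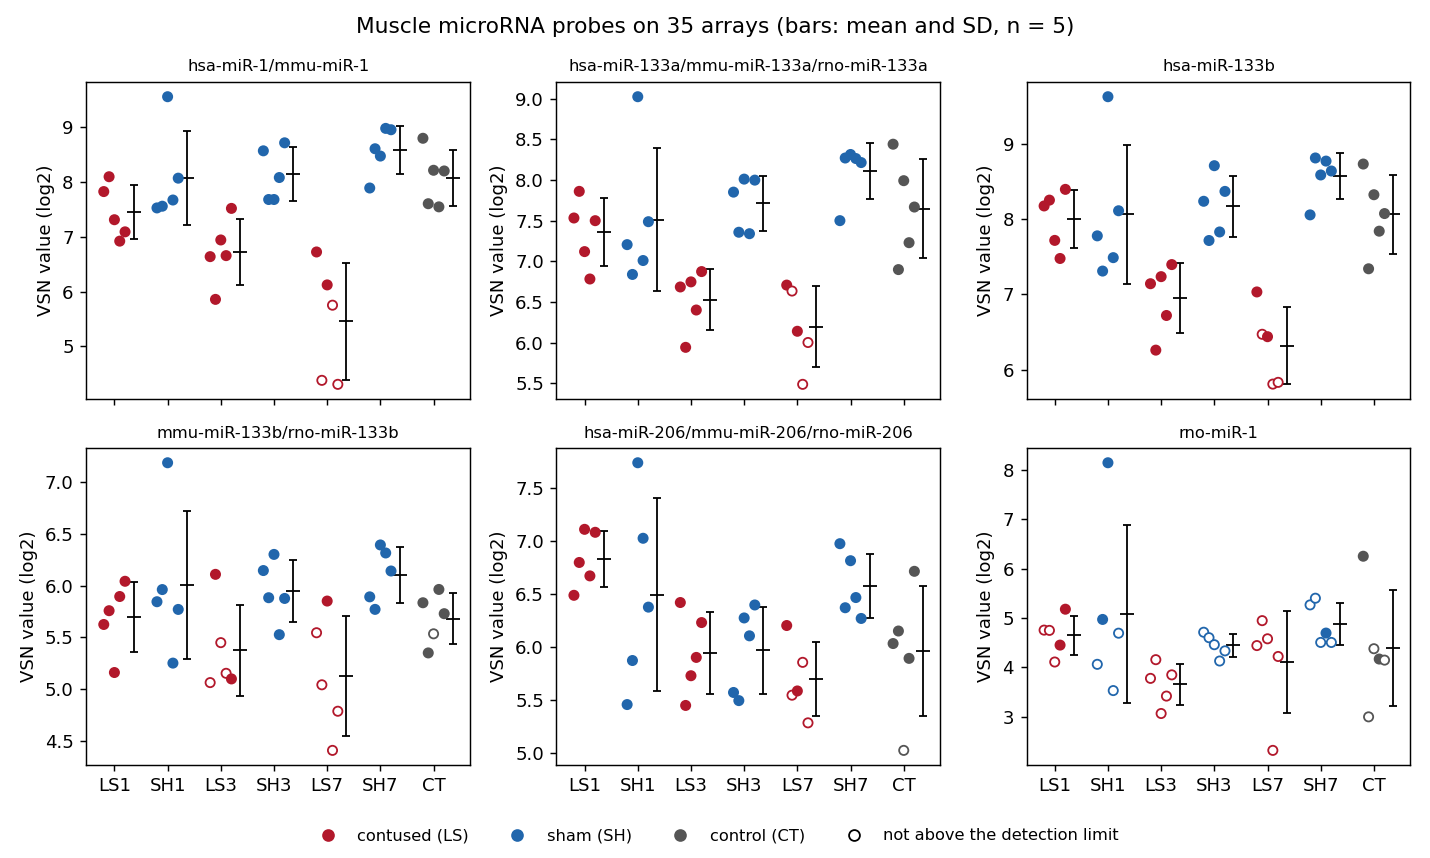
Normalised values (log2) of the 6 probes, 1 point per animal with mean and SD (n = 5) in 7 groups, open where the probe was not above the limit of that array. For miR-1, LS7 points lay between 4.31 and 6.72, all under the SH7 points at 7.89 to 8.97.

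By day 3 the same 3 probes were already lower than in sham cord. The miR-1 probe read 6.64, 5.86, 6.94, 6.65 and 7.51 in LS3, against 8.56, 7.68, 7.68, 8.08 and 8.71 in SH3, a log2 change of -1.42 (-2.19 to -0.65, 2.68-fold lower, adjusted p = 0.043). The miR-133a probe read 6.68, 5.94, 6.75, 6.40 and 6.87 in LS3, against 7.85, 7.36, 8.01, 7.34 and 8.0 in SH3, a log2 change of -1.18 (-1.84 to -0.52, adjusted p = 0.043). The human miR-133b probe read 7.14, 6.26, 7.24, 6.72 and 7.4 in LS3, against 8.24, 7.72, 8.71, 7.83 and 8.37 in SH3, a log2 change of -1.22 (-1.92 to -0.52, adjusted p = 0.044). LS3 and SH3 did not overlap for any of the 3, LS3 replicate 2 was the lowest each time, and all 10 arrays were above the limit. At this time 4.87% of names were called lower, the median change was -0.26, and 12.0% of names had their arrays fully apart in this direction.

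The other probes did not pass the test at day 3. The miR-206 probe read 6.42, 5.45, 5.73, 5.90 and 6.23 in LS3, against 5.57, 5.49, 6.27, 6.10 and 6.39 in SH3, with the ranges almost the same. It averaged 5.95 ± 0.39 in LS3 and 5.97 ± 0.41 in SH3 (SD, n = 5 each), a log2 change of -0.02 (-0.71 to 0.66, adjusted p = 0.98). The rodent miR-133b probe averaged 5.38 ± 0.44 in LS3 and 5.95 ± 0.30 in SH3, a log2 change of -0.57 (adjusted p = 0.33). The 3 calls were close to the limit. Leaving out 1 array at a time ended the call for miR-1 in 7 of 10 fits and for miR-133a and human miR-133b in 8 of 10 each (adjusted p up to 0.14). With scan day as a fixed block the changes were -1.29, -1.01 and -0.93 and none was called (adjusted p = 0.21, 0.24 and 0.33). None was called either with percentile scaling over names detected everywhere, negative-control subtraction or no filter on names, and miR-1 alone was with percentile scaling over all names.

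At day 1 no probe was called, and no name of the 719 was (0%), while 71 had an unadjusted p under 0.05. The miR-1 probe read 7.82, 8.09, 7.31, 6.92 and 7.09 in LS1, against 7.52, 7.55, 9.55, 7.67 and 8.07 in SH1. It averaged 7.45 ± 0.50 in LS1 and 8.07 ± 0.85 in SH1 (SD, n = 5 each), a log2 change of -0.63 (-1.48 to 0.23, adjusted p = 0.63). SH1 replicate 3, at 9.55, lay above every other SH1 array. It was also the highest sham of its day for the other 5 probes. Without it the changes were -0.26 for miR-1, 0.22 for miR-133a and 0.33 for human miR-133b, none called (adjusted p = 0.86 each). The miR-133a probe averaged 7.36 ± 0.42 in LS1 and 7.51 ± 0.88 in SH1, and the human miR-133b probe 8.0 ± 0.39 in LS1 and 8.06 ± 0.93 in SH1. The miR-206 probe averaged 6.83 ± 0.27 in LS1 and 6.49 ± 0.91 in SH1, and its LS1 mean was its highest of the 7 groups. Its LS1 arrays read 6.49, 6.80, 7.11, 6.67 and 7.08, against 5.46, 5.87, 7.73, 7.02 and 6.37 in SH1. The LS1 values lay inside the wider range of SH1, and the log2 change was 0.34 (adjusted p = 0.76). The rodent miR-133b probe averaged 5.70 ± 0.34 in LS1 and 6.0 ± 0.72 in SH1, a log2 change of -0.31 (adjusted p = 0.75).

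Against unoperated cord the pattern at day 7 was similar for the first 3 probes. The LS7 values of the miR-1 probe, 4.31 to 6.72, lay under all those of CT, which were 8.79, 7.60, 8.21, 7.54 and 8.20, a separation in this direction held by 24.6% of names. The log2 change in LS7 was -2.61 (-3.60 to -1.62, adjusted p = 0.0017). For miR-133a, LS7 at 5.49 to 6.71 lay under CT at 8.44, 6.90, 7.99, 7.23 and 7.67 (log2 change -1.45, adjusted p = 0.0064). For human miR-133b, LS7 at 5.81 to 7.03 lay under CT at 8.73, 7.34, 8.32, 7.84 and 8.07 (log2 change -1.75, adjusted p = 0.0023). Neither group pair overlapped, and CT replicate 2 was the lowest control in both. Over the 2 LS7 arrays above the limit, the differences from CT were -1.65 for miR-1, -1.22 for miR-133a and -1.33 for human miR-133b, with no test. For miR-206 the ranges overlapped, at 5.28 to 6.20 in LS7 and 5.03 to 6.71 in CT. The miR-206 change of -0.27 and that of -0.56 for rodent miR-133b did not pass (adjusted p = 0.55 and 0.19). So 3 of 5 probes were called lower, with 50.9% of names called lower and a median of -0.99. Without LS7 replicate 4 the 3 calls held, with changes of -2.68, -1.27 and -1.62 (adjusted p = 0.0042, 0.018 and 0.0065). After negative-control subtraction 1 of the 3 was kept, miR-1, and with percentile scaling over names detected everywhere none was (-0.33 for miR-1, adjusted p = 0.54), while miR-206 and rodent miR-133b were called higher. LS7 shared 3 scan days with CT, and within them the miR-1 difference was -1.85, -2.07 and -3.90, of which the LS7 array behind -2.07 alone was above the limit. LS3 against CT gave log2 changes of -1.35 for miR-1 (adjusted p = 0.092), -1.12 for miR-133a and -1.11 for human miR-133b (adjusted p = 0.13 each), none called, where 0% of names were called lower. All 3 were called lower with scan day as a random block, all groups in 1 fit, quantile normalisation or the ratio to the red channel, and miR-133a alone with scan day as a fixed block. The arrays of LS3 and CT were fully apart for miR-1 and miR-133a, against 6.54% of names in this direction. LS1 against CT gave no call among the probes, where 7.51% of names were called higher and 0% lower, and the miR-206 change was 0.87 (adjusted p = 0.11).

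The operation alone moved no probe past the test. SH1, SH3 and SH7 against CT and against each other gave no call for the 5 probes, nor for any of the 719 names (0%). SH7 held the highest mean of the 7 groups for the miR-1, miR-133a and both miR-133b probes. Its changes over CT lay between 0.42 and 0.62 for the 5 probes (adjusted p = 0.42 to 0.54).

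**Figure D3:**
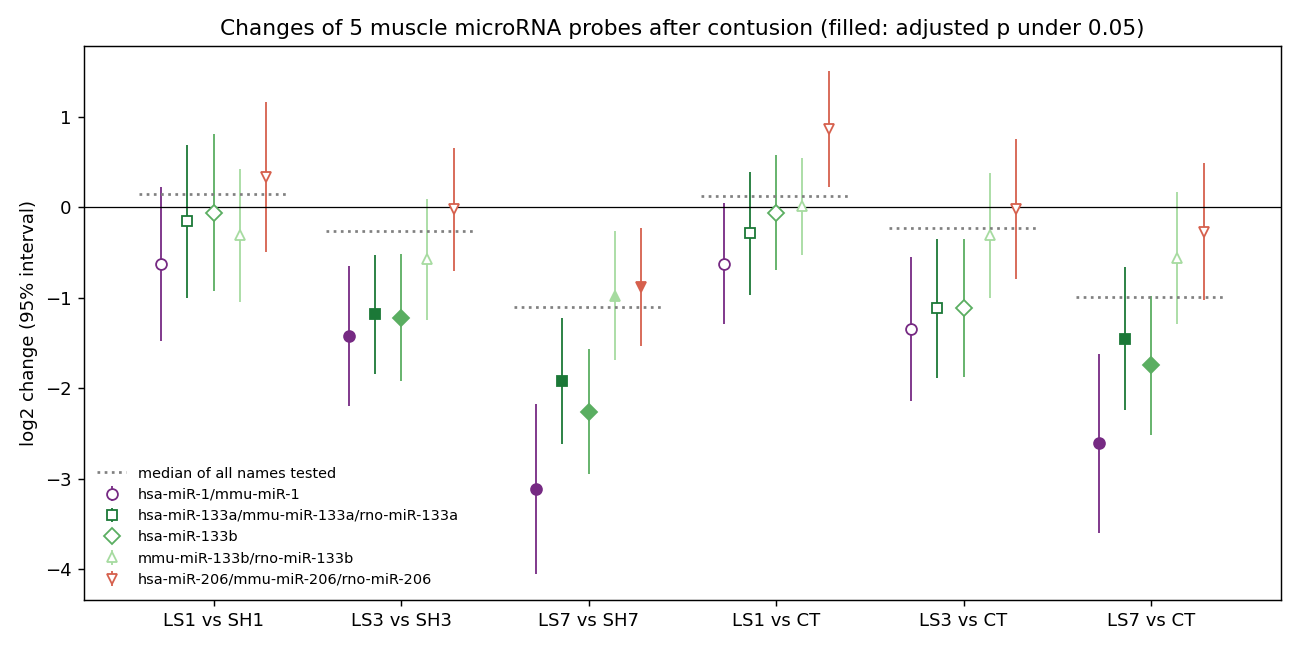
Log2 changes with 95% intervals of the 5 tested probes in lesioned cord against sham cord and control cord at each day, filled where the adjusted p was under 0.05, with the median of all 719 names as a dotted line. The miR-1 change went to -3.12 at day 7 against sham, under a median of -1.11, while miR-206 at -0.88 lay above that median.

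Within lesioned cord 4 of the 5 probes were called lower on day 7 than on day 1. LS7 against LS1 gave log2 changes of -1.99 for miR-1 (adjusted p = 0.0018), -1.16 for miR-133a (adjusted p = 0.010), -1.69 for human miR-133b (adjusted p = 0.00093) and -1.13 for miR-206 (adjusted p = 0.0070). The rodent miR-133b change of -0.57 did not pass (adjusted p = 0.17). Over the 2 LS7 arrays above the limit, the differences from LS1 were -1.02 for miR-1, -0.94 for miR-133a, -1.27 for human miR-133b and -0.93 for miR-206, with no test. These calls depended on the scaling. None of the 4 was kept with the ratio to the red channel, negative-control subtraction or percentile scaling over names detected everywhere, where all 5 changes were above 0, and 2 were kept with scan day as a fixed block (miR-1 and human miR-133b). With the ratio to the red channel, miR-206 failed the filter on spread and was not tested. All 4 held without LS7 replicate 4. In that comparison 61.5% of names were called lower and the median was -1.25. LS3 against LS1 gave no call for these probes, where 3.76% of names were called lower. LS7 against LS3 gave none either, with 0.834% of names called lower and a change of -1.26 for miR-1 (adjusted p = 0.14). The gap between lesion and sham was itself compared between days. Day 7 minus day 1, it differed by -2.49 for miR-1 (adjusted p = 0.0012), -1.76 for miR-133a (adjusted p = 0.0033), -2.20 for human miR-133b (adjusted p = 0.0011) and -1.22 for miR-206 (adjusted p = 0.027), with 56.1% of names called in this direction and a median of -1.46. None of these 4 was kept with scan day as a fixed block, quantile normalisation, the ratio to the red channel or percentile scaling over names detected everywhere, and 3 were without LS7 replicate 4 and SH7 replicate 1. With quantile normalisation and the ratio to the red channel, miR-206 failed the filter on spread and was not tested. Each of these 4 probes was above the limit on only 2 LS7 arrays, so these gaps rest in part on background values. Between days 7 and 3 no probe was called in this comparison of gaps, where 3.34% of names were called, with -1.70 for miR-1 (adjusted p = 0.066).

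Ordered by mean, LS7 was lowest and LS3 next for each of the 5 tested probes. For miR-1 the order upward was LS7, LS3, LS1, CT, SH1, SH3 and SH7. The miR-206 order was LS7, LS3, CT, SH3, SH1, SH7 and LS1. None of the 30 pairs of neighbours in these orders differed after adjustment, and 2 had an exact permutation p under 0.05 alone, LS1 over LS3 for miR-133a and for human miR-133b (p = 0.016 and 0.0079, adjusted p = 0.24 each). The 4 spots of a probe on an array differed by a median SD of 0.138 for miR-1, 0.175 for miR-206 and 0.255 for rodent miR-133b, below the SD between animals of a group of 0.673, 0.507 and 0.443. For the rat miR-1 probe these were 0.455 and 0.945. On single arrays the SD between spots reached 2.84 for miR-1, 0.654 for miR-206, 1.27 for rodent miR-133b and 1.43 for rat miR-1.

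For 2 probes well above background, a shift common to an array leaves their difference on that array as it was. Such differences were therefore compared between groups by exact two-sided permutation tests. These are changes of one probe beside another, not levels. Of 40 differences, 16 passed after adjustment over the 40, with 6 in LS7 against SH7 and 5 in LS7 against CT. Most LS7 values of the 5 probes were not above the limit, and pairs of other names were not tested. At day 7, miR-1 minus miR-206 was -0.24 ± 0.80 in LS7 and 2.0 ± 0.72 in SH7 (SD, n = 5 each), a gap of -2.23 (exact p = 0.0079, adjusted p = 0.024). On LS7 replicates 2, 4 and 5 neither probe was above the limit, and the other 2 arrays averaged 0.53, a gap of -1.47 with no test. The full gap passed under 7 of 7 scalings. Human miR-133b minus miR-206 gave a gap of -1.38, and miR-1 minus miR-133a one of -1.20 (adjusted p = 0.024 and 0.040), and each passed under 4 of 7 scalings. Over the 2 LS7 arrays above the limit these gaps were -1.15 and -0.47. The day 7 gaps for miR-133a minus miR-206, at -1.03, and miR-1 minus human miR-133b, at -0.86, did not pass (adjusted p = 0.063 and 0.079). At day 3, miR-1 minus miR-206 was 0.78 ± 0.47 in LS3 and 2.17 ± 0.58 in SH3, a gap of -1.40 (exact p = 0.0079, adjusted p = 0.024). At that day miR-133a minus miR-206 gave -1.16 and human miR-133b minus miR-206 gave -1.20 with the same p. The miR-206 probe was above the limit on all 10 arrays of that day but near it, at 1.07 to 1.90 times the limit in LS3 and 1.18 to 2.21 times in SH3. These gaps therefore do not show whether miR-206 moved less than the other 3 probes. At day 1 miR-1 minus miR-133a was 0.09 ± 0.28 in LS1 and 0.56 ± 0.15 in SH1, a gap of -0.47 (exact p = 0.0079, adjusted p = 0.024), which passed under 6 of 7 scalings. Human miR-133b minus rodent miR-133b, probes for the same microRNA, gave a gap of -1.28 between LS7 and SH7. The rodent probe was above the limit on 1 LS7 array and at 1.25 to 2.71 times the limit in SH7, so this gap does not show whether the pair moved alike.

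**Figure D4:**
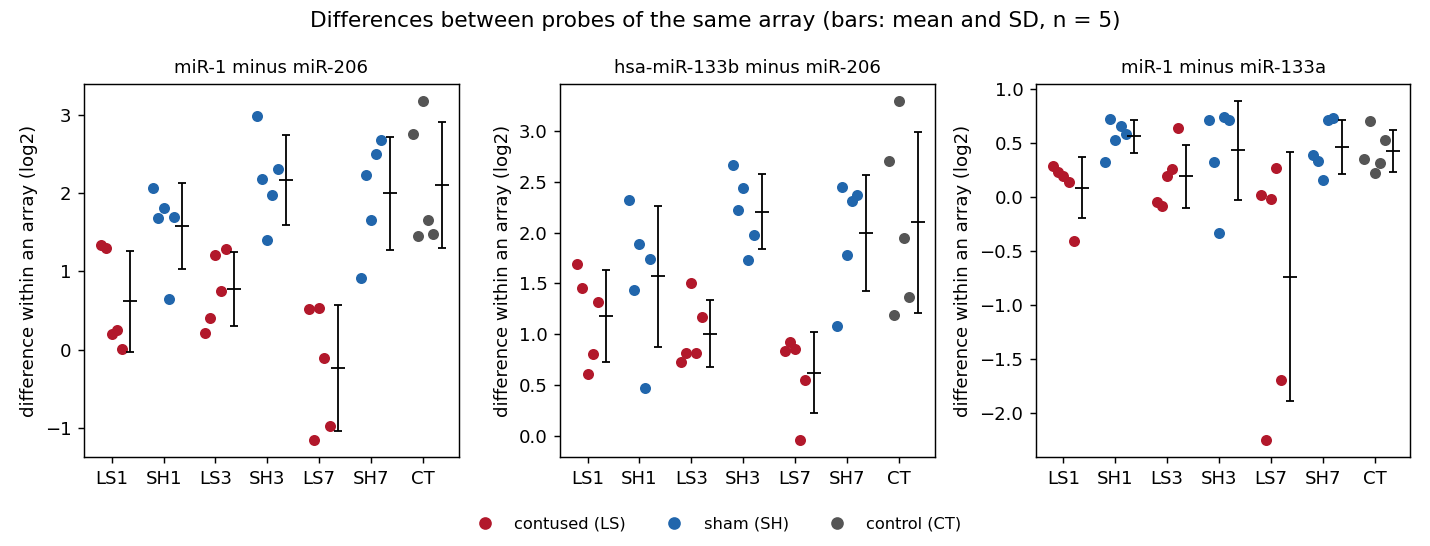
Differences between probes on the same array (log2), 1 point per animal with mean and SD (n = 5), in 7 groups. Between miR-1 and miR-206 the LS7 mean was -0.24 and the SH7 mean 2.0, and LS3 with 0.78 also lay under SH3 with 2.17.

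How the arrays were scaled set the size of the day 7 changes. The median change of the 816 detected names between LS7 and SH7 was -1.0 with the main normalisation, -0.25 with the deposited values, -0.18 with quantile normalisation, -0.29 and 1.29 with percentile scaling over all names and over those detected everywhere, -0.13 with the ratio to the red channel, and 0.28 after subtracting the negative controls. The miR-1 change ran between -3.12 and -0.49 over these 7 scalings. Relative to the median of detected names it was between -2.62 and -1.0, below that median in all 7. Relative to the same median, miR-133a lay between -1.06 and -0.51 and human miR-133b between -1.40 and -0.66, also below it in all 7. The miR-206 and rodent miR-133b probes lay on both sides of it, at -0.24 to 0.12 and -0.62 to 0.19, and the sign of their own changes turned with percentile scaling over names detected everywhere. There the miR-133a change also turned, to 0.31, and that of human miR-133b was -0.03. At day 3 the values relative to the median were -1.23 to -0.84 for miR-1, -0.99 to -0.60 for miR-133a, -1.01 to -0.65 for human miR-133b, and 0.06 to 0.25 for miR-206.

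**Figure D5:**
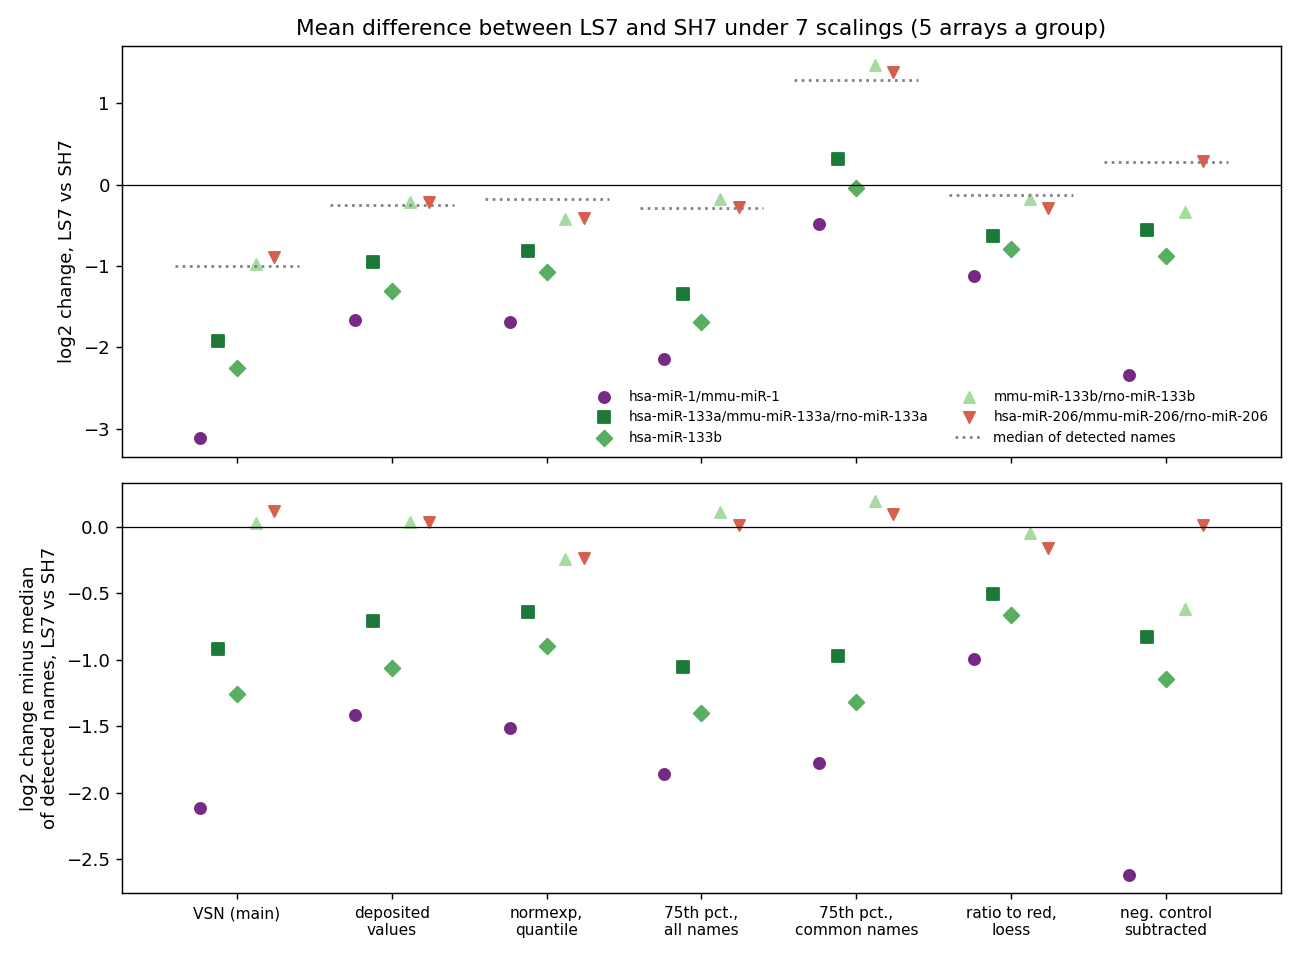
Log2 change between LS7 and SH7 (5 arrays each) for the 5 tested probes under 7 scalings, as measured above and minus the median of the 816 detected names beneath, with that median dotted. The miR-1 points lay between -2.62 and -1.0 in the lower plot, and the miR-206 points between -0.24 and 0.12.

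The probes differed in which other names followed them. Over the 35 arrays, which share the shifts of groups and of signal strength, the names most alike to miR-1 by Pearson's r were hsa-miR-376a (0.943), miR-218 (0.928) and miR-10b (0.925), with a median of 0.474 over 815 names. For miR-133a they were human miR-133b (0.976), hsa-miR-376a* (0.89) and hsa-miR-379* (0.882). Human miR-133b was followed by miR-133a, then by miR-1 and the neuronal miR-124 (0.905 each). The miR-206 probe was most alike to hsa-miR-183* (0.748), hsa-miR-1284 (0.747) and hsa-miR-483-5p (0.744), and its r with miR-1, its seed relative, was 0.46, at rank 288. With the limit at 3 SD, miR-206 was above it on 26 of 35 arrays. The part of its weak signal in these lower r values was not tested. The rodent miR-133b probe was most alike to miR-328 (0.739). After the group means were taken out, human miR-133b still led for miR-133a (0.958), while miR-340-5p, miR-376a and miR-218 led for miR-1 (0.831, 0.828 and 0.821). Signal from miR-133a and miR-133b may not be separable on the array, so r between their probes may not compare separate microRNAs.

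Other microRNAs known from muscle did not share one pattern. Of 7 listed, 5 had probes and 4 were tested, and 1 of these 4 was called lower in LS7 against SH7, with a median of -0.72. Over all names 58.4% were called lower and the median was -1.11. The 1 called was mmu-miR-486, also abundant in red blood cells, at -1.84 (adjusted p = 0.0062). The changes of cardiac miR-208 and miR-499 were -1.03 and -0.41 (adjusted p = 0.055 and 0.37), and neither was above the limit on any LS7 array. The miR-378 change was 0.04 (adjusted p = 0.94), with signal on all 35 arrays. The star strands of miR-1 and miR-133a were above the limit on 0 arrays. The mean level of the list ran between 4.71 and 6.46 in LS7 and 6.19 and 6.42 in SH7. Of 5 smooth muscle and mesenchymal names, 2 were called lower, beside the same 58.4%. These were the smooth muscle markers miR-143 and miR-145 (-1.25 and -1.92). The list's median was -0.16, and the changes of the other 3 names lay between -0.16 and 0.69, none called.

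Lists for other cell types are given beside these changes, and their counts stand against 58.4% of all names called lower at day 7 and 4.87% at day 3. All 5 neuronal names were called lower in LS7 against SH7, with a median of -1.88, and their mean level ran between 8.05 and 10.04 in LS7 and 10.56 and 11.44 in SH7. At day 3, 3 of the 5 were called lower, with a median of -1.29 and levels between 8.68 and 10.41 in LS3 and 10.71 and 11.14 in SH3. All 3 oligodendrocyte names were called lower at day 7, with a median of -2.70, and none at day 3, with a median of -1.02. The red blood cell names miR-451 and miR-144 changed by -2.33 and -3.23 at day 7, both called. Their median was 1.31 at day 3 and 0.79 at day 1, with neither called. Against sham cord none of the 3 immune cell names was called, with a median of -0.49 at day 7 and 1.06 at day 3. Against CT, 2 of the 3 were called higher in LS1, and miR-223 alone in LS3 and in LS7. The miR-223 changes in LS1, LS3 and LS7 were 2.40, 2.65 and 1.39 (adjusted p = 0.00025, 0.00080 and 0.010). In these comparisons 54, 2 and 19 of the 719 names were called higher. The part of neurons, oligodendrocytes, blood or muscle attached to the cord in the changes of miR-1 and miR-133 was not tested.

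The rat miR-1 probe stayed at the background on most arrays. Against a mean of 8.57 in SH7 for the miR-1 probe, the rat miR-1 probe averaged 4.87, and why they differed was not tested. Its strongest signal was in SH1 replicate 3, with 327 units or 6.67 times that array's limit, and a normalised value of 8.14. In CT replicate 1 it reached 6.25. Fitted without the detection filter, it was not called in any comparison, with log2 changes of -0.79 in LS3 against SH3 (adjusted p = 0.25) and -0.77 in LS7 against SH7 (adjusted p = 0.16). These differences are between values mostly at the background and give no fold.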

How the data were processed

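Total RNA (1 µg) from each animal was labelled with Hy3 and hybridised to Exiqon miRCURY LNA arrays (v11.0). The GenePix files deposited by the authors hold the green (532 nm) and red (635 nm) intensity of each spot, background medians and flags, and the red channel is not described in the sources used here. Per the file headers and the paper's methods, the table the authors deposited holds log2 values after variance stabilising normalisation (VSN), used as an alternative, and the GenePix flags are a score set by the authors' scan. Green foreground minus background medians, without spots flagged -100, were normalised by VSN (Python 3.11.15, numpy 2.4.6, 0.9 of the spots kept in the fit) and summarised as the median of 4 spots. A name was detected on an array where over 0.5 of its spots passed the negative-control mean plus 2 SD, and kept with 3 of 5 animals of a group. Of 816 such names, 719 with an interquartile range over 0.5 were tested. limma 3.58.1 (R 4.3.3) compared 2 groups of 5, unpaired, on their 10 arrays, and p-values were adjusted over the 719. Single differences had exact permutation tests (scipy 1.17.1). The number of arrays, 5 a group with 1 animal each, limits the precision. The normalisation and limma steps were run on simulated data, where a minority of names changed, at random up or down. That setting does not cover day 7, where most names were called lower. The probes named are the 6 members, with the 3 names most alike to each by correlation and the listed marker names. The members and lists were chosen with earlier results of these data known. Alternatives were 6 other scalings (that with negative-control subtraction was chosen after seeing the data), other filters, all 7 groups in 1 fit, a replicate block, scan day as a block (13 days, with up to 4 arrays each), and arrays left out.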

Additional observations from a re-analysis of the deposited data

Results flagged for a closer look

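Of 42 groups of 5 arrays looked at, 3 held an array far from the other 4, where chance gives about 1 in 20 groups. The miR-1 value of SH1 replicate 3 was 9.55, with the nearest other SH1 array at 8.07. The miR-133a value of SH7 replicate 1 was 7.5, with the nearest at 8.21. For rno-miR-1, LS7 replicate 4 read 2.32, with the nearest at 4.22, and none of these LS7 values was above the limit. The lesion-minus-sham gap differed between day 7 and day 1 by limma's interaction term for miR-1 (-2.49, adjusted p = 0.0012), miR-133a (-1.76, adjusted p = 0.0033), human miR-133b (-2.20, adjusted p = 0.0011) and miR-206 (-1.22, adjusted p = 0.027). In this direction 56.1% of the 719 names were called, with a median of -1.46. Each of the 4 probes was above the limit on only 2 LS7 arrays, so these gaps rest in part on background values.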

How the results depend on the processing

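The main counts of tested probes called lower were 3 of 5 in LS3 against SH3, 5 in LS7 against SH7, 3 in LS7 against CT, 4 in LS7 against LS1, 4 for the day 7 minus day 1 gap, and 0 in LS1 against CT, LS3 against CT and LS7 against LS3. Of all 719 names, 4.87% were called lower in LS3 against SH3, 58.4% in LS7 against SH7 and 50.9% in LS7 against CT. The share was 61.5% in LS7 against LS1 and 56.1% for the day 7 minus day 1 gap. These counts are to be read against those shares. In LS3 against SH3 the count was 1 with percentile scaling over all names and 0 with percentile scaling over common names, negative-control subtraction, no filter, or scan day as a fixed block. In LS7 against SH7 it was 3 with the deposited values, quantile normalisation, percentile scaling over all names or the red ratio (miR-206 and rodent miR-133b then failed the filter on spread in all 4), 0 with common names, where 2 were called higher (miR-206 and rodent miR-133b), 1 with negative-control subtraction (miR-1, -2.34, adjusted p = 0.014) and 3 without both LS7 replicate 4 and SH7 replicate 1. In LS7 against CT it was 2 with quantile normalisation (miR-133a lost, adjusted p = 0.086), 1 with negative-control subtraction, and 0 with common names, where 2 were called higher (miR-206 and rodent miR-133b). In LS1 against CT it was 1 with the red ratio. In LS3 against CT it was 3 with all groups in 1 fit, quantile normalisation, the red ratio or scan day as a random block, 2 with the deposited values, and 1 with negative-control subtraction or scan day as a fixed block. In LS7 against LS3 it was 1 with all groups or scan day as a random block. In LS7 against LS1 it was 2 with the deposited values, percentile scaling over all names or scan day as a fixed block, 1 with quantile normalisation, and 0 with the red ratio, negative-control subtraction or common names, where 1 was called higher (rodent miR-133b). The day 7 minus day 1 gap had 2 with the deposited values, 2 with common names that were called higher (miR-206 and rodent miR-133b), 1 with negative-control subtraction, and 0 with quantile normalisation, the red ratio or scan day as a fixed block. Under the 4 scalings where miR-206 and rodent miR-133b failed the filter on spread, they were untested in every comparison. Of the 40 differences between probes 16 passed, and 9 with quantile normalisation (8 of them among the 16) and 7 with negative-control subtraction (7 among the 16). More passed with the other scalings. These were 20 with the deposited values (14 among the 16) and 21 with the red ratio (12 among the 16). Percentile scaling over all names gave 21 and over common names 23, with all 16 kept in both.

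Signs turned mostly with percentile scaling over common names. There LS7 against SH7 gave 0.31 for miR-133a, 1.38 for miR-206 and 1.48 for rodent miR-133b, LS7 against CT gave 0.41 for miR-133a, 0.13 for human miR-133b, 1.46 for miR-206 and 1.40 for rodent miR-133b, and LS7 against LS1 gave 0.35 for miR-1, 0.79 for miR-133a, 0.28 for human miR-133b, 0.96 for miR-206 and 1.63 for rodent miR-133b. With negative-control subtraction miR-206 was 0.29 in LS7 against SH7 and 0.71 in LS7 against CT. With percentile scaling over all names the mean differences of LS7 and CT were 0.11 for miR-206 and 0.05 for rodent miR-133b, neither of them called in the main comparison. The cause was not tested.

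Leaving out 1 array at a time gave counts of 0 to 3 in LS3 against SH3, 4 to 5 in LS7 against SH7, 3 in LS7 against CT, 4 in LS7 against LS1, 0 to 1 in LS1 against CT (miR-206, called higher, without CT replicate 5), LS3 against CT and LS3 against LS1 (1 without LS3 replicate 2 in both) and LS7 against LS3 (1 without LS3 replicate 2 or LS7 replicate 1), 0 to 2 for the day 7 minus day 3 gap (2 without LS3 replicate 2), 3 to 5 for day 7 minus day 1, 14 to 18 differences, and 0 elsewhere.

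The paper names a paired Student t-test. The replicate numbers were not taken to pair the animals here, since the labels tie no same-numbered rats. Correlations of same-numbered arrays do not decide this. Over the 15 comparisons 0 to 4 of 5 pairs correlated over 0.1, with 3 of 5 in LS7 against SH7 and 4 of 5 in LS3 against SH3. The median correlation ran from -0.411 in LS1 against SH1 to 0.502 in LS3 against CT. With a replicate block the counts were 3 in LS3 against SH3, 5 in LS7 against SH7, 3 in LS7 against CT and 4 in LS7 against LS1.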
